A study of Rattus norvegicus with 15 samples.

Results

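The genes described here are 7 receptors through which pituitary and steroid hormones act on the testis: Fshr, Lhcgr, Prlr, Ghr, Esr1, Esr2 and Nr3c1. All probe sets that the platform's probe-to-gene table assigns to exactly one of these symbols were taken, which gave 11 of the 31099 probe sets on the array and 6 of the 14217 genes named there. They comprise 3 probe sets of Prlr, 2 each of Lhcgr, Ghr and Nr3c1, and 1 each of Esr1 and Esr2. The table lists no probe set (0) under Fshr, the receptor of follicle-stimulating hormone, so its transcript was not measured here. Expression was measured with Affymetrix 3' expression arrays in whole testes of LBNF1 rats aged 25 to 27 weeks. Controls were 10 arrays whose source field reads as taken before irradiation. The other 5 arrays came from testes after irradiation, 6 Gy to the lower abdomen by a treatment text that all 15 samples carry, and how long after irradiation they were collected was not stated in the sources at hand. No allele, transgene or other agent is named for either group, and the labels do not say whether each biological replicate is a separate rat, so the p-values cover the spread among these arrays, which may be partly technical.

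Luteinizing hormone acts on Leydig cells, the steroid-producing cells between the seminiferous tubules, through the G protein-coupled receptor encoded by Lhcgr, and follicle-stimulating hormone acts on Sertoli cells, the supporting cells inside the tubules. Prlr and Ghr encode single-pass cytokine receptors for prolactin and growth hormone that signal through Jak2 and Stat proteins, and splicing of Prlr gives receptor forms with different cytoplasmic tails. Esr1 and Esr2 encode the nuclear estrogen receptors, and Nr3c1 encodes the glucocorticoid receptor, which sits in the cytoplasm with heat shock proteins until hormone binds it.

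Values are log2 signals with an unknown zero point, and the median signal of an array lay between -1.61 and -1.37 in control arrays and between -1.38 and -1.26 in irradiated arrays. A probe set is called dim in a group when all arrays of that group have it under the array median, where its measured change is no firm size and a bound is given beside it. Probe sets at or above the array median in at least 5 of the 15 arrays were tested with limma (2-sided, Benjamini-Hochberg adjusted over all 18711 probe sets tested, threshold 0.05). Of the 11 receptor probe sets 7 were tested, and the 2 of Ghr, the 1 of Esr2 and 1 of Nr3c1 were not. RNA integrity, read as the 3′ minus the 5′ actin signal, lay between 0.65 and 1.89 in control arrays and between 0.90 and 1.16 in irradiated arrays. Over the 15 arrays, 17 of 19 listed spermatid, 15 of 20 Sertoli cell and 13 of 16 Leydig cell markers, which define a testis, passed the same filter. Control arrays alone can pass a probe set, and 11 of these 17 spermatid markers were dim in irradiated arrays.

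Of the 7 receptor probe sets tested, 6 were higher in irradiated testes and 1 was lower. Among all probe sets tested 49.0% were higher and 34.3% lower, and 83.4% passed in either direction, against 7 of 7 here. In 5 of the 7 the irradiated and control arrays did not overlap, against 65.5% of all probe sets tested (41.3% higher and 24.2% lower), and all 5 were higher. In all 11 receptor probe sets, tested or not, this held for 7, against 45.9% of the whole table. Lhcgr probe set 1369033_at entered the test through its irradiated arrays alone and Esr1 through its control arrays alone, so the filter partly set both differences, and the only lower call is one of them. The plot of receptor signals shows every array.

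**Figure D1:**
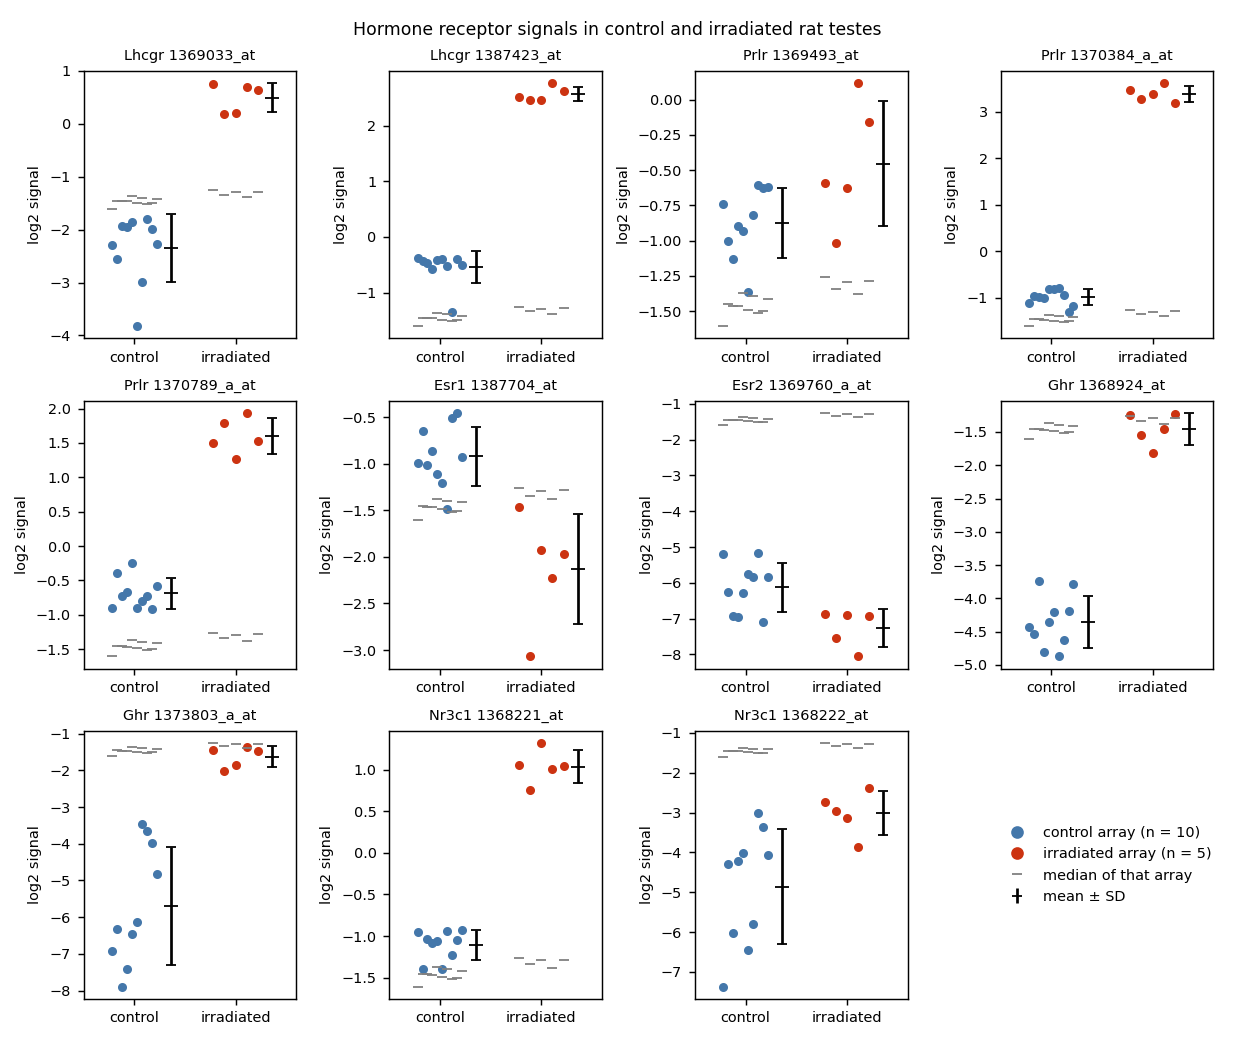
Log2 signal of the 11 receptor probe sets in 10 control and 5 irradiated arrays, with the median of each array as a grey dash and the mean ± SD of each group at its right. Both Lhcgr probe sets, Prlr 1370384_a_at and 1370789_a_at, and Nr3c1 1368221_at were higher in every irradiated array than in any control array, whereas Esr1 was lower, Esr2 lay far below the array median, and Ghr reached the array median in only 2 (1368924_at) and 1 (1373803_a_at) irradiated arrays.

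Lhcgr, the receptor of luteinizing hormone, rose by 3.11 ± 0.14 (SE) on the log2 scale in probe set 1387423_at, an 8.64-fold higher signal. Its control arrays ranged from -1.35 to -0.39 with a median of -0.44, and the irradiated arrays had 2.52, 2.46, 2.46, 2.77 and 2.62 in replicates 1 to 5. The groups were separated by 2.85 log2 units, and the lowest control array, replicate 8, stood apart from the other 9, which lay between -0.59 and -0.39. The means were -0.54 ± 0.29 (SD, n = 10) and 2.57 ± 0.13 (SD, n = 5), with a limma adjusted p of 1.60e-12. Of the 10841 genes tested, 424 (3.91%) rose at least this much in measured means. The other Lhcgr probe set, 1369033_at, was dim in all control arrays, which ranged from -3.82 to -1.79 with a median of -2.13. Its irradiated arrays had 0.76, 0.18, 0.21, 0.69 and 0.64. The measured change was 2.85 ± 0.28 (SE, limma adjusted p = 5.86e-08), and as a bound the signal was at least 3.90-fold higher in irradiated testes. Since 1369033_at was dim in control arrays, the sizes of the rises of both probe sets cannot be compared.

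The 250 bases before the annotated start of Lhcgr are shown because this receptor rose in probe set 1387423_at. The sequence is from RefSeq (GRCr8, chr6:11415165-11415414, plus strand, 5′ to 3′), with capitals marking matches on either strand to AGGTCA, the half-site of many nuclear receptors, and GGGCGG, the GC box. Also searched were TATAAA, the TATA box, and AGAACA, a half-site of the glucocorticoid receptor group.
Lhcgr: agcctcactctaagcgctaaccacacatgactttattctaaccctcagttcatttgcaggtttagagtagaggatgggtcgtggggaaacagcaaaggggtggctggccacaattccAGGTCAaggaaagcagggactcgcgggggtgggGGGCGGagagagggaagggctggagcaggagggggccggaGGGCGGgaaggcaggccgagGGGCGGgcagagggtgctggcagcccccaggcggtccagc
This window held 1 AGGTCA match, at position -133 where -1 is the base before the start, 3 GGGCGG matches and 0 of TATAAA and AGAACA. Of all 33469 windows of this length, 14.1% held AGGTCA, 30.5% GGGCGG, 12.9% TATAAA and 17.5% AGAACA. A match is a description of letters and not a site.

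Prlr, the prolactin receptor, had the largest rise of the tested receptor probe sets, and its 3 probe sets rose by different amounts. Probe set 1370384_a_at rose by 4.37 ± 0.10 (SE), a 20.7-fold higher signal (limma adjusted p = 5.74e-16). Its control arrays ranged from -1.30 to -0.78 with a median of -0.96, and the irradiated arrays had 3.46, 3.28, 3.38, 3.63 and 3.19. The groups were 3.98 log2 units apart, and their means were -0.99 ± 0.17 (SD, n = 10) and 3.39 ± 0.17 (SD, n = 5). Among all genes tested, 82 (0.756%) rose at least this much in measured means.

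Probe set 1370789_a_at of Prlr rose by 2.29 ± 0.13 (SE), a 4.90-fold higher signal (limma adjusted p = 4.33e-11). Control arrays ranged from -0.92 to -0.25 with a median of -0.73, and irradiated arrays had 1.50, 1.79, 1.26, 1.94 and 1.53, again without overlap. The third probe set, 1369493_at, had control values from -1.37 to -0.61 with a median of -0.86 and irradiated values of -0.59, -1.02, -0.62, 0.12 and -0.16. Here the groups overlapped, and only irradiated replicates 1, 4 and 5 lay above every control array. The change of 0.42 ± 0.17 (SE) passed the threshold (limma adjusted p = 0.0293) but not without irradiated replicate 4 (0.28, adjusted p = 0.121) or 5 (0.35, adjusted p = 0.0871). It also missed the threshold after quantile normalization (0.13, adjusted p = 0.477), after centring arrays on their medians (0.26, adjusted p = 0.171) and with control replicates 6 to 10 only (0.35, adjusted p = 0.159).

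The changes of the Prlr probe sets were compared within arrays, a test chosen after their values were seen. Probe set 1370384_a_at minus 1370789_a_at went from -0.30 ± 0.24 (SD, n = 10) in control to 1.78 ± 0.25 (SD, n = 5) in irradiated arrays, an unequal change of 2.08. Probe set 1369493_at minus 1370384_a_at went from 0.11 ± 0.38 to -3.84 ± 0.40, and 1369493_at minus 1370789_a_at from -0.19 ± 0.34 to -2.06 ± 0.44. Each of these 3 differences had an exact permutation p of 0.000333, the smallest that 10 against 5 arrays can give (adjusted p = 0.000444 over 4 pairs, of which the fourth, that of Lhcgr, is not read because 1 of its probe sets was dim in control arrays). Levels of different probe sets are not comparable, so these values show unequal changes of signal only. Whether the transcripts that they read changed unequally was not tested. The plot of the 3 Prlr probe sets gives every array. The letter a in a probe set name marks a design shared by alternative transcripts of a gene, and which receptor form each probe set reads was not examined.

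**Figure D2:**
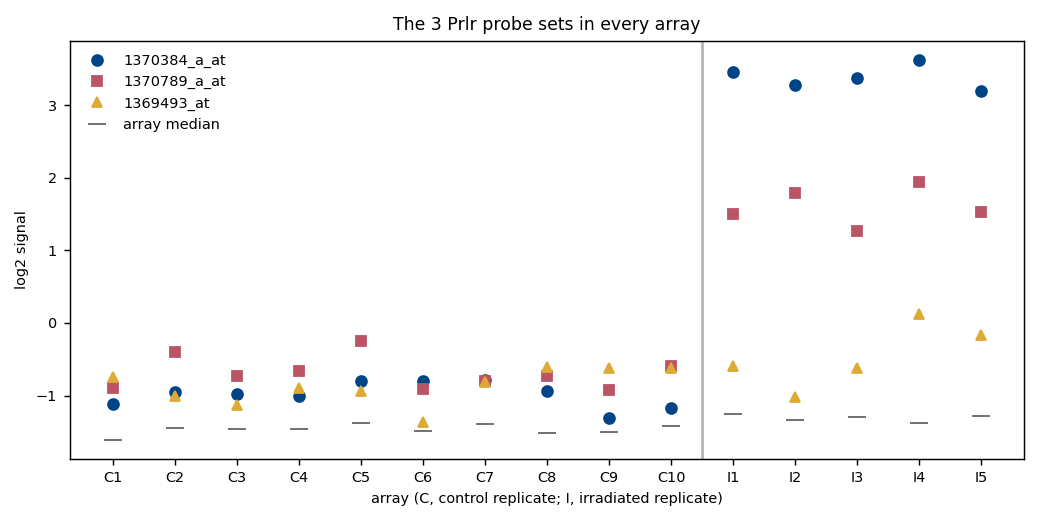
Log2 signal of the 3 Prlr probe sets in each control (C1 to C10) and irradiated (I1 to I5) array, with the array median as a grey dash. In irradiated arrays 1370384_a_at lay between 3.19 and 3.63, 1370789_a_at between 1.26 and 1.94, and 1369493_at between -1.02 and 0.12.

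RefSeq gives Prlr 2 annotated starts in the promoter table used, both on the plus strand of chromosome 2 of GRCr8. The 250 bases before each are shown because the signals of this gene's probe sets changed unequally. They are chr2:60861515-60861764 (start 1) and chr2:60909409-60909658 (start 2), with capitals as for Lhcgr and, in start 2, for AGAACA.
Prlr start 1: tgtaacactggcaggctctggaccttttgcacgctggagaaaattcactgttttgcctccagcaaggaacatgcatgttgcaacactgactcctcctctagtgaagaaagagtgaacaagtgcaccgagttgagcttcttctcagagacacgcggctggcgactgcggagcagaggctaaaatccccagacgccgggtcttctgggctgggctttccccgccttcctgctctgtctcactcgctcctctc
Prlr start 2: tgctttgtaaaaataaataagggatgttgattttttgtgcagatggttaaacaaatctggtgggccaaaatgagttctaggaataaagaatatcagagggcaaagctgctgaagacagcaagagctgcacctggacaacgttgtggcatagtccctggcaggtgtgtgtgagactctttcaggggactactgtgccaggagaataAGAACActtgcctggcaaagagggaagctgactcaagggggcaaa
The first window held 0 matches to all 4 motifs. The second held 1 AGAACA match, at position -45, and 0 of the other 3. The array data do not tell which start was used.

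Ghr, the growth hormone receptor, was higher in irradiated arrays in both probe sets but near or below the array median throughout, so it was not tested. In 1368924_at control arrays ranged from -4.87 to -3.73 with a median of -4.39, and irradiated arrays had -1.25, -1.54, -1.82, -1.46 and -1.23. In 1373803_a_at control arrays ranged from -7.89 to -3.45 with a median of -6.22, and irradiated arrays had -1.45, -2.01, -1.85, -1.36 and -1.48. The groups did not overlap in either probe set. Both were dim in all control arrays and their irradiated means lay below the array median, so no size of change is given. Without the filter on low values both measured rises passed (limma adjusted p = 1.26e-09 and 7.73e-05), but they rest on control arrays that were all dim.

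Esr1, the nuclear estrogen receptor alpha, was the tested receptor gene that fell. Its control arrays ranged from -1.48 to -0.45 with a median of -0.96, and its irradiated arrays had -1.47, -3.07, -1.92, -2.22 and -1.97. The ranges touched, since control replicate 7 at -1.48 lay just below irradiated replicate 1 at -1.47. The means were -0.92 ± 0.32 (SD, n = 10) and -2.13 ± 0.59 (SD, n = 5). The measured change was -1.21 ± 0.22 (SE, limma adjusted p = 6.50e-05). Esr1 was dim in every irradiated array and passed the filter through its control arrays alone, and as a bound the signal was at least 1.32-fold lower. Esr2, estrogen receptor beta, was dim in all 15 arrays. Its signal ranged from -7.10 to -5.16 in control arrays and from -8.05 to -6.87 in irradiated arrays, with overlap, so neither a level nor a change was read from it. Without the filter on low values its difference of -1.12 passed (limma adjusted p = 0.00803), but it is not read as a fall because every array was dim.

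Nr3c1, the glucocorticoid receptor, rose by 2.14 ± 0.11 (SE) in probe set 1368221_at, a 4.42-fold higher signal (limma adjusted p = 8.34e-12). Control arrays ranged from -1.40 to -0.93 with a median of -1.06, and irradiated arrays had 1.05, 0.76, 1.32, 1.00 and 1.05. The groups were 1.69 log2 units apart, with means of -1.11 ± 0.18 (SD, n = 10) and 1.04 ± 0.20 (SD, n = 5). The other probe set, 1368222_at, was dim in all 15 arrays, with values from -7.37 to -3.01 in control and from -3.85 to -2.38 in irradiated arrays, and the groups overlapped. Its measured difference of 1.84 is not read as a rise because every array was dim.

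Markers of the somatic cell types mostly rose and those of later germ cells fell. In this bulk tissue the number of cells of a type, its share of the RNA and the transcript per cell cannot be told apart. This holds for rises and falls alike, those of the receptors included. The marker lists, without the receptors, moved as follows. All 13 tested Leydig cell markers rose, with a median change of 2.61. Of 15 Sertoli cell markers 14 rose and 1 fell (median 2.19). Of 12 peritubular myoid markers 11 rose and 1 did not pass (median 2.06, or 1.53 with dim members at their bounds). Of 14 macrophage markers 12 rose and 2 fell (median 2.39, or 1.98 so bounded), and of 11 endothelial markers 10 rose and 1 fell (median 2.08, or 0.64 so bounded). In these last 3 lists 3, 4 and 4 members were dim in all control arrays and passed the filter through irradiated arrays alone. All 8 spermatocyte and all 17 spermatid markers fell, with medians of -5.43 and -8.26, or -3.32 and -6.54 with dim members at their bounds. The 8 spermatocyte and 11 of the spermatid markers were dim in all irradiated arrays. They passed the filter through control arrays alone, which partly set their falls. Of 5 spermatogonial markers 2 rose and 1 fell. Of genes listed as markers of other tissues, the only epididymal one tested, Cst8, fell, of 3 fat markers 1 rose and 1 fell, and of 3 blood markers 2 rose and 1 fell. Whether these signals came from other tissues or from the testis itself was not tested. Summed linear signals of the Leydig cell list ranged from 14.7 to 20.3 in control and from 113 to 137 in irradiated arrays, those of the Sertoli cell list from 30.9 to 40.5 and from 132 to 178, and those of the spermatid list from 508 to 758 and from 2.37 to 5.38. The part of these shifts in the receptor changes was not tested beyond the comparison that follows.

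**Figure D3:**
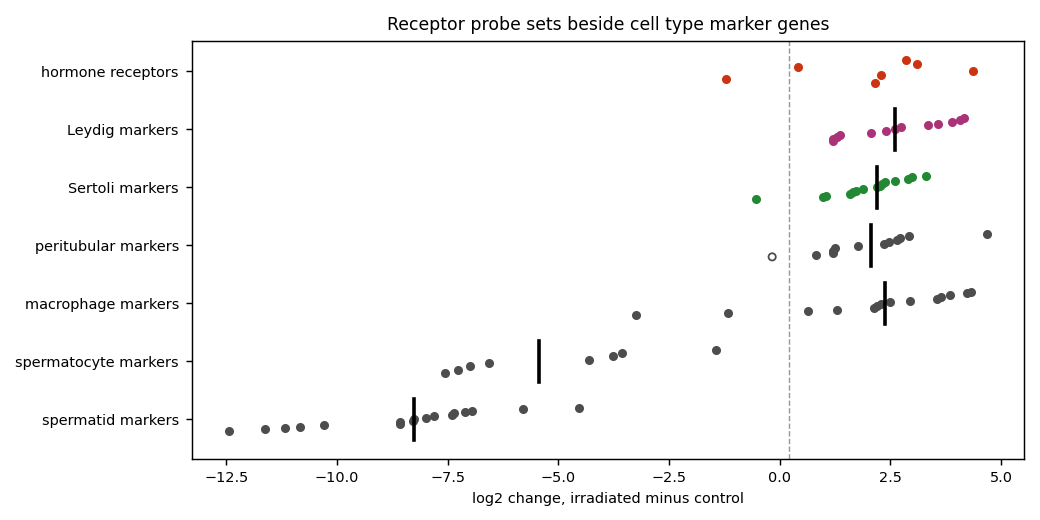
Log2 change, irradiated minus control, of the 7 tested receptor probe sets and of marker genes of 6 cell types, 1 probe set per gene. Filled points passed an adjusted p of 0.05 (limma), open points did not, black bars are list medians, and the dashed line is the median of all genes tested (0.20). Most receptor probe sets lie among the Leydig and Sertoli cell markers. Prlr 1370384_a_at at 4.37 lies above the highest Leydig marker shown, at 4.16, but another probe set of the Leydig marker Nr5a1, not shown, had a measured change of 5.86. Esr1 at -1.21 lies below all Leydig and Sertoli cell markers shown.

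Each array was then set against the median of its Leydig cell markers, and the limma test was repeated over all 18711 probe sets, of which 2.85% were higher and 89.6% lower on this scale. This median rose by 2.89 between the groups, more than the 2.61 given above as the median of the single markers' changes. Errors in this and the next comparison cover the spread among arrays. They do not cover the spread among markers, whose single changes ran from 1.20 to 4.16 for Leydig cells. Of the 7 receptor probe sets 1 was higher and 4 were lower. Prlr 1370384_a_at rose more than the median of the Leydig cell markers, by 1.49 ± 0.18 (SE, adjusted p = 1.36e-07). Lhcgr did not differ from this median beyond its error in 1387423_at (0.22 ± 0.15 (SE), 95% interval from -0.09 to 0.54, adjusted p = 0.158) or in 1369033_at (-0.04 ± 0.28 (SE), 95% interval from -0.62 to 0.54, adjusted p = 0.887). The latter was lower with values raised to the array median (-0.92). With the mean of the markers in place of their median, 1387423_at passed (0.50, adjusted p = 0.00284). The changes relative to these markers were -0.59 ± 0.18 (SE, adjusted p = 0.00485) for Prlr 1370789_a_at and -0.74 ± 0.18 (adjusted p = 0.000663) for Nr3c1 1368221_at. They were -2.47 ± 0.21 (adjusted p = 2.95e-10) for Prlr 1369493_at. The measured value for Esr1 was -4.10 ± 0.24 (adjusted p = 5.23e-13), but its irradiated signal was dim, and as a bound the change was -3.29 or lower. With a pseudocount of 1, the values were 0.87 for Prlr 1370384_a_at and -2.37 for Esr1.

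Against the median of the Sertoli cell markers, where 7.69% of all probe sets tested were higher and 82.0% lower, 3 receptor probe sets were higher and 2 lower. Prlr 1370384_a_at rose by 2.17 ± 0.12 (SE, adjusted p = 1.31e-11) and Lhcgr 1387423_at by 0.91 ± 0.16 (adjusted p = 5.12e-05) relative to these markers. The higher call of Lhcgr 1369033_at (0.65 ± 0.24 (SE), adjusted p = 0.019) turned to -0.24 when every value was raised to at least its array's median. Nr3c1 1368221_at did not differ from the median of the Sertoli cell markers beyond its error (-0.06 ± 0.11 (SE), 95% interval from -0.29 to 0.18, adjusted p = 0.641). Neither did Prlr 1370789_a_at (0.09 ± 0.14 (SE), 95% interval from -0.21 to 0.40, adjusted p = 0.541), although with the marker mean the latter was higher (0.34). With a pseudocount of 1 on the linear scale both were lower, Nr3c1 at -0.48 (adjusted p = 8.06e-08) and Prlr 1370789_a_at at -0.22 (adjusted p = 0.0152). The change of Prlr 1369493_at relative to the Sertoli cell markers was -1.78 ± 0.17 (SE, adjusted p = 2.61e-08). The measured value for Esr1 was -3.41 ± 0.20 (SE, adjusted p = 2.03e-11), and as a bound its change was -2.60 or lower. With the pseudocount Prlr 1370384_a_at had 1.39, Lhcgr 1387423_at 0.50 and Esr1 -1.85.

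**Figure D4:**
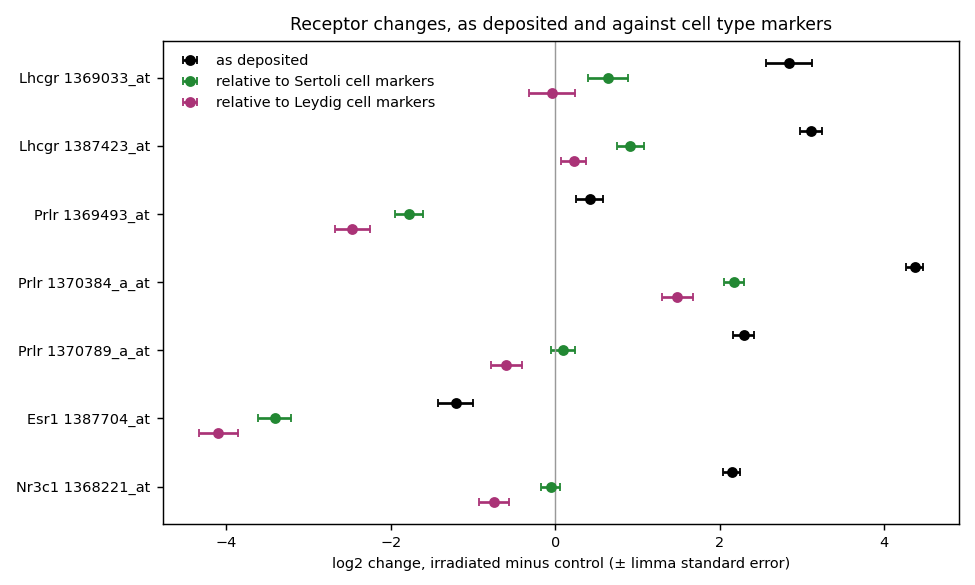
Log2 change, irradiated minus control, with its limma standard error for the 7 tested receptor probe sets, as deposited (black), relative to the median of the Sertoli cell markers (green) and relative to the median of the Leydig cell markers (purple). Prlr 1370384_a_at stays above 0 on all 3 scales (4.37, 2.17 and 1.49) and the measured change of Esr1, dim in irradiated arrays, below 0 (-1.21, -3.41 and -4.10).

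The genes whose signals over the 15 arrays lay closest to each receptor's, after centring every probe set on its control mean, were taken from 10837 genes. Likeness is the root mean square difference in log2 units, which is small for genes that share the size of the change between groups. For Lhcgr 1387423_at they were Col3a1, a collagen chain (0.18), Ctsb, a lysosomal protease (0.18), and Sult1a1, a sulfotransferase (0.20). For Prlr 1370384_a_at they were Serping1, the inhibitor of complement C1 (0.20), Gstm4, a glutathione transferase that was dim in all control arrays (0.21), and Fmo5, a flavin monooxygenase (0.23). For Nr3c1 1368221_at they were Sos1, an exchange factor for Ras (0.13), Abcc9, a subunit of potassium channels (0.13), and Mat2b (0.15). For Esr1 they were Aptr (0.28), Morc2 (0.29) and Myo5b, an unconventional myosin (0.31).

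The genes around the receptors went both ways, and each list is read beside all genes tested, of which 47.6% were higher and 37.9% lower with a median change of 0.20. One probe set stood for each gene, that with the highest mean. Of 9 tested genes of hormone subunits and hormone metabolism 5 rose and 3 fell (median 0.97). Among those that rose, Hsd11b1 is also in the Leydig cell marker list, and Inha and Inhbb are in the Sertoli cell list. Igf1, which growth hormone induces in many tissues, rose by 3.74, and Hsd11b1 and Hsd11b2, whose enzymes interconvert active and inactive glucocorticoids, by 3.35 and at least 1.43. The subunit genes Lhb and Fshb, known for their pituitary expression, had signals in control testes and were lower after irradiation, with log2 changes of -2.22 and of -0.78 or lower. That of Cyp19a1, the aromatase that makes estrogens, was -0.53 or lower.

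Of 22 tested genes that lead from gonadotropin receptors to cyclic AMP, 14 rose and 5 fell (median 0.70). Gnas, the stimulatory G protein subunit, rose by 2.59, although its other probe set changed by -0.81. The protein kinase A subunit genes Prkacb and Prkar2b rose by 2.56 and 2.16, and Prkar2a fell by 3.85, although another of its probe sets had a change of 2.22. Crem, a transcription factor of spermatids, had a change of -3.07 or lower and the phosphodiesterase gene Pde4a of -2.27 or lower. After quantile normalization or centring arrays on their medians 8 of these genes fell. Of 15 tested genes of the Jak-Stat pathway used by the prolactin and growth hormone receptors, 9 rose and 3 fell (median 0.74). Stat3 rose by 3.65, Jak2, the kinase bound to both receptors, by at least 2.14 and Jak1 by 2.52. Of the feedback inhibitors of the Socs family, Socs2 (-0.55 or lower), Socs5 (-2.03, with 1.85 in another probe set) and Socs7 (-0.78) fell and Socs6 rose (1.19). Socs3 (-0.36), the related Cish (0.10) and Stat5a (0.08) did not pass.

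Of 16 tested chaperones and coregulators of steroid receptors 9 rose and 7 fell (median 0.98). Nrip1, a corepressor, rose by at least 2.19, Fkbp5, a cochaperone of the glucocorticoid receptor, by 2.06 and Ep300, an acetyltransferase, by 1.87 with -0.17 in another probe set. The cochaperone genes Bag1, Fkbp4 and Dnaja1 fell, with changes of -2.86, -1.59 and -0.94, the last with 1.81 in another probe set. Of 17 tested genes known to respond to glucocorticoids 13 rose and 3 fell (median 2.37, or 2.07 with dim members at their bounds). Their median lay among those of the Leydig (2.61), macrophage (2.39), Sertoli (2.19) and peritubular (2.06) marker lists, and its cause was not tested. Cebpb and Cebpd, transcription factors, rose by at least 1.69 and 1.86, and Errfi1, a feedback inhibitor of the epidermal growth factor receptor, by at least 3.13. The metallothionein genes Mt1 and Mt2A and the clock gene Per1 fell, with changes of -1.14, -0.63 and -0.76. Of 25 other hormone receptor genes tested 15 rose and 5 fell (median 0.83). Gnrhr, the receptor of gonadotropin-releasing hormone, rose by at least 3.04, Igf1r, the receptor of insulin-like growth factor, by 2.89 and the orphan receptor gene Esrrg by at least 1.03. The genes Acvr2a, an activin receptor, Esrrb and Adipor2 fell, with changes of -0.85, -0.58 and -0.55, and the highest of the 3 tested probe sets of Adipor2 had 1.28.

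**Figure D5:**
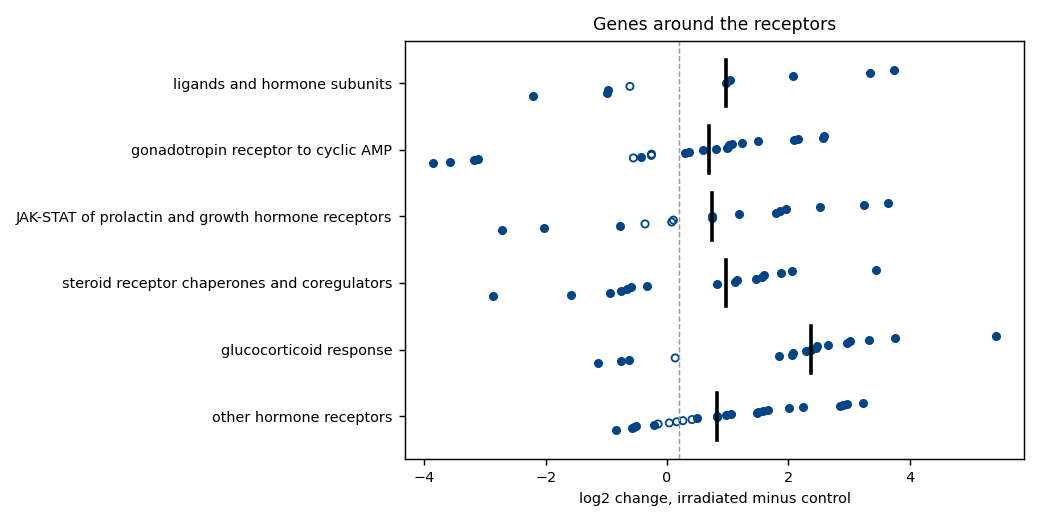
Log2 change, irradiated minus control, of the tested genes of 6 lists around the receptors, 1 point per gene. Filled points passed an adjusted p of 0.05 (limma), open points did not, black bars are list medians and the dashed line is the median of all genes tested (0.20). The glucocorticoid response list has 13 of 17 genes to the right, with a median of 2.37, and the other 5 lists have medians between 0.70 and 0.98. Of all genes tested 47.6% were higher, and the Leydig and Sertoli cell marker lists, not shown here, had medians of 2.61 and 2.19.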

How the data were processed

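The authors deposited log2 signals of 31099 probe sets, for which the submitters' processing notes name MAS5 without a version. How arrays were scaled and logs taken was not stated in the sources at hand. The values were used as deposited, and 0 array columns were left unused. Probe sets were named by the platform annotation (20832 with 1 gene symbol, 436 with several, 9831 with none). The 57 AFFX control probe sets were not tested. The test was limma 3.58.1 in R 4.3.3 (lmFit, eBayes), checked on simulated data with normal noise. There only a small part of the probe sets changed, all with control means above the median. That check does not cover changes as widespread as those in these data. The fits relative to cell type markers subtracted the markers' median in each array. For a bound, values below an array's median were set to that median. The receptors, gene lists, marker lists and alternatives were chosen with earlier results of these data known. Of each list around the receptors, the 3 largest rises and 3 largest falls past the threshold are named, ranked by measured means. Outside this rule Socs6, Socs3, Cish, Stat5a, Inha and Inhbb are also named. Likeness names the 3 nearest genes. Alternatives changed the filter, normalization, pseudocount, marker summary, control subset and replicate block, or left out 1 array. Promoter windows are from RefSeq (GRCr8), and the 250 bases before each start were searched. Precision is limited by the number of arrays.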

Additional observations from a re-analysis of the deposited data

Results flagged for a closer look

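In control replicate 8 the signal of Lhcgr probe set 1387423_at was -1.35, while the other 9 control arrays lay between -0.59 and -0.39, a gap of 0.794 of the group's range. Of 22 groups of receptor values examined, 1 held such a distant sample, and chance gives about 1 in 20. Without this array the change was 3.02 instead of 3.11. Its 3′ minus 5′ actin signal of 1.44 was among the 3 largest of the control arrays, and without those 3 arrays the change was also 3.02. Whether RNA integrity bears on the low signal was not tested.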

How the results depend on the processing

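The calls of Lhcgr 1387423_at, Prlr 1370384_a_at and 1370789_a_at, and Nr3c1 1368221_at as higher, and of Esr1 as lower, held in every alternative in which they were tested. Over the alternatives that did not leave out 1 array, the count of higher receptor probe sets ranged from 5 to 9, against 6 in the main test. The count of lower receptor probe sets was 2 with no filter (11 tested), 0 with a filter at the 75th percentile (5 tested) and 0 with control replicates 6 to 10 only, where Esr1 was not tested. Leaving out 1 array in turn gave 4 to 6 higher and 1 lower, where Lhcgr 1369033_at was not tested without any 1 of the irradiated arrays. Relative to Sertoli cell markers the lower count was 0 with the 75th percentile filter, 5 with a pseudocount of 1 on the linear scale and 1 with control replicates 6 to 10. Relative to Leydig cell markers the higher count was 2 with the marker mean, and the lower count 2 with the 75th percentile filter. The cyclic AMP list had 8 lower genes after quantile normalization and 8 after centring on array medians, where the median of all genes was -0.06 and 0.05, against 0.20 as deposited. The share of higher among called probe sets was 58.8% as deposited and 51.2%, 54.1% and 62.8% after quantile normalization, after centring and with values raised to the array median.

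Signs turned only in changes relative to markers. For Lhcgr 1369033_at against Leydig cell markers the value was 0.030 with control replicates 6 to 10, 0.24 with the marker mean, and from -0.20 to 0.068 with 1 control array left out. Against Sertoli cell markers it was -0.24 with values raised to the array median and -0.54 with the pseudocount. Lhcgr 1387423_at against Leydig cell markers was -0.026 with the pseudocount. Nr3c1 against Sertoli cell markers was 0.23 with the 75th percentile filter, 0.019 with control replicates 1 to 5, 0.19 with the marker mean, 0.086 without dim markers, and kept its sign at -0.48 with the pseudocount. Prlr 1370789_a_at against Sertoli cell markers was -0.22 with the pseudocount and from -0.0028 to 0.18 with 1 array left out. The cause of these turns was not tested.

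Samples with the same replicate number did not deviate together (correlations from -0.05 to 0.07 over 5 numbers). With the replicate number as a block, where control replicates 6 to 10 have no partner and do not enter the change, 6 receptor probe sets were higher and 1 lower, Prlr 1370384_a_at rose by 4.36 and Nr3c1 against Sertoli cell markers was 0.019.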
